A study of Mus musculus with 12 samples.

Results

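The genes described here carry cargo between membranes of the cell: Rab, Arf and Arl GTPases, coat and p24 proteins, sorting nexins and Vps proteins, an exocyst relative, and the proton pump of endosomes and lysosomes. They were chosen by the start of their gene symbol alone, with no measured value in the rule. Of the 918 named genes measured on these arrays, 23 belonged to the set, and each was measured by 1 cDNA clone spotted in duplicate. All 23 were matched to a RefSeq gene. In these pooled livers 1 gene, Smap1, gave a positive ratio on all 11 arrays that measured it, in all 3 null genotypes. A second gene, Wdr7, gave ratios near 1.2 on the log2 scale in the hemopexin-null pool and near 0 in the haptoglobin-null pool. Most other members had ratios within 0.2 of zero as deposited, once a term for the array sets described below was fitted. If the arrays of 1 set run in the opposite direction, 11 of 23, 8 of 23 and 7 of 20 members lay within 0.2 of zero in Hx-null, Hp-null and HpHx-null. Of all genes and clones tested, 41.5%, 33.7% and 45.2% did so. In that direction neither Smap1 nor Wdr7 passed (limma adjusted p under 0.05) in any null against wild-type, and Smap1 was near 0 in Hp-null and HpHx-null.

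Vesicles bud from a donor membrane with the help of coats and small GTPases, are tethered to their target and fuse with it. Receptors that enter the cell by endocytosis reach early endosomes, from which recycling endosomes return them to the surface, while ESCRT and HOPS complexes send other cargo to lysosomes, which the vacuolar ATPase acidifies. In liver this traffic takes up plasma protein complexes and exports newly made plasma proteins. Hepatocytes use LRP1 to clear heme bound to hemopexin, and macrophages use CD163 to clear hemoglobin bound to haptoglobin. Neither Lrp1 nor Cd163 was among the named genes measured.

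The study compared liver RNA of 3 null genotypes with wild-type liver on 12 spotted cDNA arrays with 2 colours, 4 per null genotype. Hx-null mice lacked hemopexin, Hp-null mice haptoglobin and HpHx-null mice both proteins. The question set by the design is how the liver's transcripts change without these scavengers. All nulls are constitutive, so the proteins were missing from every cell throughout life, and all animals, the wild-type mice included, were littermates from crosses of F1 double heterozygous Hp+/-Hx+/- mice on a mixed C57/BLJ6 X 129Sv background. For each genotype the livers of 5 or more adults were pooled after perfusion with PBS. No treatment is named. By the labels, channel 2 always held the null pool, labelled Cy5 on replicates 1 and 2 and Cy3 on replicates 3 and 4, against 1 wild-type pool. As far as the labels say, every genotype had 1 pool, so its 4 arrays repeat the measurement of 1 pair of pools. Each p-value sets 2 pools against the spread between arrays, and the variation between mice is not measured. All comparisons share the wild-type pool. In RNA of whole liver, fewer cells of a type and less RNA per cell cannot be told apart.

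The values are log2 ratios of the 2 channels, centred so that the median of each array is 0, and an array held 3009 to 4165 values. Gene names depend on a reversed spot numbering: among 3476 pairs of clones of 1 gene, 205 had both clones measured with the reversed numbering and 63 with the direct one. Under the direct numbering a different set of 39 genes would match the rule, with 2 in both. The direction of the ratios is not settled. Over all spots, Hx-null arrays of the same labelled dye correlated at 0.81 to 0.83, but such arrays of Hp-null at -0.77 to -0.55 and of HpHx-null at -0.63 to -0.23. By the sign of the first principal component (69.4% of the sum of squares), the arrays fell into 2 sets of 6, each with 2 arrays per genotype. Set A held Hx-null replicates 1 and 2, Hp-null replicates 2 and 3, and HpHx-null replicates 1 and 4. Set B held the others. The sets departed from the labelled dyes on 4 arrays. Each fit was therefore run both with the labelled dye as a term, as designed, and with the array set in its place, and signs are those deposited. For many genes only the fit with the array set is printed. Against wild-type, Wdr7 in Hx-null was the 1 member call with the labelled dye. Because the sets were found from these same values, the adjusted p-values with the array set do not allow for that choice. The median SE over the members in Hx-null was 0.10 with the array set and 0.18 with the labelled dye. The values with the arrays of set A turned in sign are given for members where they change what is said. They are not given for other genes of the pathway or for cell type markers. Of the hepatocyte markers listed, 4 of 10 were measured (Alb, Apoa1, Serpina1e and Ttr), of the macrophage markers 2 of 14 and of the neutrophil markers 1 of 8. No single-symbol clone of the erythroid, endothelial, stellate, cholangiocyte or lymphocyte lists was measured.

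The arrays sampled the branches of the pathway unevenly. By symbol, the platform annotation held 176 genes of the set, of which 23 were measured (13.1%), against 918 of 6788 for all named genes (13.5%). Endosomal sorting was best covered, with 9 of 40 genes: Snx3, Snx4, Snx5, Snx9, Snx19, Vps11, Vps28, Vps37a and Vps45. Measured Rab genes numbered 5 of 34 (Rab1b, Rab11a, Rab11b, Rab27a and the Rab11 effector Rab11fip2). The Arf and Arl branch had 4 of 16 (Arf3, Arl1, Arl3 and Smap1), coat, translocon and p24 proteins 2 of 31 (Copz1 and Tmed3), the tethers 1 of 15 (Exoc3l4) and the vacuolar ATPase 2 of 11 (Atp6v1e1 and Wdr7). None of 18 genes of clathrin and its adaptors and none of 11 SNARE genes had a value. Of the 23 genes, 14 had a value on all 12 arrays and the lowest number was 9. Arl3, Rab27a and Snx4 had values on only 2 HpHx-null arrays and were not tested there, which left 20 members in that genotype. The duplicate spots of a member differed by a median of 0.092 on the log2 scale, against 0.0842 over all clones.

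**Figure D1:**
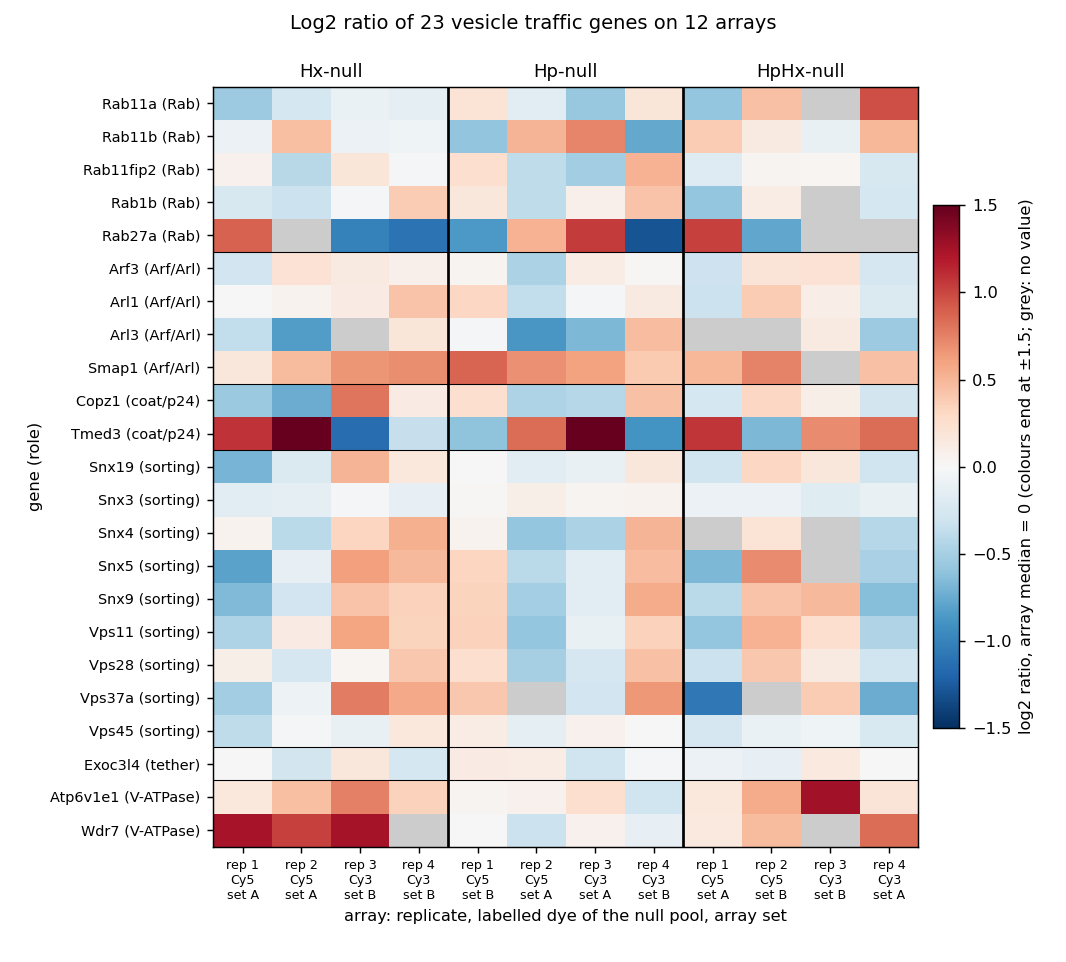
Log2 ratio of each of the 23 genes (vertical axis, grouped by role) on each of the 12 arrays (horizontal axis, with the labelled dye of the null pool and the array set), with positive and negative ratios in different colours and grey where an array holds no value for the gene. Smap1 is positive on all 11 arrays with a value, while most sorting genes change sign between set A and set B.

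Smap1 encodes a GTPase-activating protein for Arf6 that binds clathrin and acts in endocytosis at the plasma membrane. In Hx-null its log2 ratios on replicates 1 to 4 were 0.17, 0.47, 0.67 and 0.70. In Hp-null they were 0.87, 0.69, 0.60 and 0.39. In HpHx-null they were 0.49, 0.74 and 0.44 on replicates 1, 2 and 4, and replicate 3 held no value. All 11 values were positive whatever the dye or array set, and the 3 genotypes overlapped. Each named gene, and each clone that carries no single symbol, is counted as a feature. Among 1792 features with values on at least 9 arrays, 12 were positive on every array (0.67%), and Smap1 was the member of the set among them.

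The mean Smap1 ratio was 0.50 ± 0.25 (SD, n = 4 arrays) in Hx-null, 0.64 ± 0.20 (SD, n = 4) in Hp-null and 0.56 ± 0.16 (SD, n = 3) in HpHx-null. The fitted ratio with the array set as a term passed in all 3 genotypes (limma, Benjamini-Hochberg adjustment over all features): 0.50 (SE 0.09, adjusted p = 0.0102) in Hx-null, 0.64 (SE 0.09, adjusted p = 0.00348) in Hp-null and 0.59 (SE 0.11, adjusted p = 0.00939) in HpHx-null. Of all features, 2.09%, 2.78% and 5.38% passed in the same comparisons. The ratios correspond to differences of 1.42-fold, 1.56-fold and 1.51-fold. With the labelled dye as the term none of the 3 passed (limma adjusted p = 0.269, 0.643 and 0.248). Smap1 did not pass between genotypes: the Hp-null ratio exceeded the Hx-null ratio by 0.14 (SE 0.13, limma adjusted p = 0.672 with the array set), and HpHx-null differed from Hx-null by 0.09 (SE 0.14, limma adjusted p = 0.996). The set-term call in Hx-null was lost without replicate 2, 3 or 4 of Hx-null, and that in HpHx-null without replicate 2 of HpHx-null. That in Hp-null passed with any 1 of the 12 arrays left out (limma adjusted p of 0.00121 to 0.0496). If the deposited values were Cy5 over Cy3 instead, the arrays would have to be turned by the labelled dye, and Smap1 would then have ratios of -0.18 (SE 0.30) in Hx-null, 0.14 (SE 0.30) in Hp-null and 0.26 (SE 0.35) in HpHx-null, none past the threshold. With the arrays turned by set, Smap1 stayed above 0 in Hx-null but had -0.0062 in Hp-null and -0.065 in HpHx-null, and it passed in no genotype.

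RefSeq lists more than 1 start for Smap1 on assembly GRCm38.p6. The window at the farther upstream start is shown because Smap1 is the member with 1 sign on every array. It spans 300 bases, most of them upstream, at chr1:23922332-23922631 on the minus strand, is 65.3% G and C, and is printed 5′ to 3′. It held neither motif searched, so no letters are capitals.
Smap1: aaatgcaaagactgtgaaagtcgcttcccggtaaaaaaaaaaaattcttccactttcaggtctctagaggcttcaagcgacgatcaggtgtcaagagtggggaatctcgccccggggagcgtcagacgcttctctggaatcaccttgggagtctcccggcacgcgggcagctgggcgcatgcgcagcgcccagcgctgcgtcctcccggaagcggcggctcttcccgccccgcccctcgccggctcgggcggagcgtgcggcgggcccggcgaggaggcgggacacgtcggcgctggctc

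The other measured Arf family genes are Arf3, a Golgi GTPase that recruits coats, Arl1, which recruits golgins to the trans-Golgi, and Arl3, which releases lipid-modified cargo in cilia. Their ratios in Hx-null with the array set as a term were 0.03 for Arf3, 0.15 for Arl1 and -0.20 for Arl3. In Hp-null they were -0.08, 0.01 and -0.28, and in HpHx-null -0.03 for Arf3 and -0.02 for Arl1. None of them passed in that fit, where Arl3 in Hp-null was the nearest to the threshold (SE 0.11, limma adjusted p = 0.184). With the arrays turned by set, Arl3 passed in Hp-null (0.50, SE 0.15, limma adjusted p = 0.0195) and Arl1 in HpHx-null (0.25, SE 0.09, limma adjusted p = 0.0341).

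Wdr7 encodes the beta subunit of rabconnectin-3, which helps assemble the vacuolar ATPase. Its log2 ratios in Hx-null were 1.24, 1.02 and 1.25 on replicates 1 to 3, with no value on replicate 4. In Hp-null they were 0.01, -0.32, 0.06 and -0.12. In HpHx-null they were 0.15, 0.47 and 0.84 on replicates 1, 2 and 4, with none on replicate 3. The Hx-null values lay above all others, and the HpHx-null values above all Hp-null values. Non-overlap of this kind was found for 2 of 23 members between Hp-null and Hx-null (Snx3 and Wdr7; 3.19% of all features), for 1 of 20 between HpHx-null and Hx-null (Wdr7; 1.45%) and for 2 of 20 between HpHx-null and Hp-null (Snx3 and Wdr7; 2.07%). These counts use the signs as deposited. With the arrays of set A turned in sign, the ranges of both genes overlapped in each of these comparisons.

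In Hx-null against wild-type with the labelled dye, Wdr7 was the 1 member of 23 that passed (0.643% of all features passed, all of them positive), with a ratio of 1.21 (SE 0.13, limma adjusted p = 0.00835), a 2.31-fold difference. The array set gave 1.18 (SE 0.13, limma adjusted p = 0.000212). In HpHx-null the ratio was 0.50 (SE 0.13, limma adjusted p = 0.0446) with the array set, just past the threshold, and 0.53 (SE 0.13, limma adjusted p = 0.259) with the labelled dye. In Hp-null it was -0.09 (SE 0.11, limma adjusted p = 0.688 with the array set). The direct comparison of Hp-null with Hx-null gave -1.30 (SE 0.18, limma adjusted p = 0.036) with the labelled dye, the 1 call among 23 members (0.595% of all features), and -1.27 (SE 0.17, limma adjusted p = 0.00137) with the array set, again the 1 call (1.14%). HpHx-null differed from Hx-null by -0.68 (SE 0.18, limma adjusted p = 0.392 with the array set) and from Hp-null by 0.59 (SE 0.17, limma adjusted p = 0.222), neither past the threshold.

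The labelled-dye call of Wdr7 in Hx-null was lost without replicate 1, 2 or 3 of Hx-null, the 3 arrays that measured it there, and the call between Hp-null and Hx-null passed with the labelled dye in 1 of 12 fits with an array left out, that without replicate 4 of Hx-null. Fitted with the array set, both passed in 12 of 12 such fits. The HpHx-null call with the array set passed in 2 of 12, without replicate 3 of Hp-null or replicate 1 of HpHx-null, and its adjusted p otherwise reached 0.317. With the replicate number as a block the Hx-null ratio was 1.22 (limma adjusted p = 0.103) and the Hp-null and Hx-null difference -1.31 (limma adjusted p = 0.276), so that 0 members passed. If the arrays are turned by the labelled dye, Wdr7 had 0.34 (SE 0.43), -0.06 (SE 0.37) and -0.07 (SE 0.43) in Hx-null, Hp-null and HpHx-null. With the arrays turned by set, Wdr7 had -0.34, 0.038 and -0.17 in the same order. The Hp-null ratio then exceeded the Hx-null ratio by 0.38, and none of these passed.

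Globin clones are set beside Wdr7 because they varied across the genotypes in a like way. An annotation entry for the alpha-globins of adults, joined in it with a histone, had 18 measured clones. Their median ratio on replicates 1 to 4 was 0.95, 0.99, 1.19 and 0.41 in Hx-null, 0.09, -0.33, -0.17 and 0.02 in Hp-null, and 0.15, 0.45, 0.52 and 0.51 in HpHx-null. The median rested on 8 clones on replicate 4 of Hx-null and on 6 on replicate 3 of HpHx-null. As deposited, the order of the genotypes was the same for this entry as for Wdr7, the trait by which it was chosen. With the arrays of set A turned in sign, the entry held both signs in Hx-null and HpHx-null. The part of blood-derived RNA in the Wdr7 ratio was not tested.

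Atp6v1e1 encodes subunit E of the catalytic sector of the same proton pump. It is described after its values were seen. Its ratios on replicates 1 to 4 were 0.15, 0.45, 0.76 and 0.35 in Hx-null, 0.04, 0.07, 0.25 and -0.30 in Hp-null, and 0.15, 0.56, 1.26 and 0.19 in HpHx-null. All values were positive in Hx-null and HpHx-null, but both ranges overlapped that of Hp-null. The fitted ratios with the array set were 0.43 (SE 0.15, limma adjusted p = 0.161), 0.01 (SE 0.15, limma adjusted p = 0.975) and 0.54 (SE 0.15, limma adjusted p = 0.0527), none past the threshold. Its HpHx-null ratio with the labelled dye was 0.54 (SE 0.18, limma adjusted p = 0.423). Dmxl2, the alpha subunit of rabconnectin-3 and partner of Wdr7, is outside the symbol rule; its ratios were 0.03, -0.05 and -0.10 (SE 0.10 in each), none past the threshold. In Hx-null the fitted ratios with the array set were 1.18 for Wdr7, 0.43 for Atp6v1e1 and 0.03 for Dmxl2. In Hp-null they were -0.09, 0.01 and -0.05, and in HpHx-null 0.50, 0.54 and -0.10. The genes were not compared with each other by a test.

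**Figure D2:**
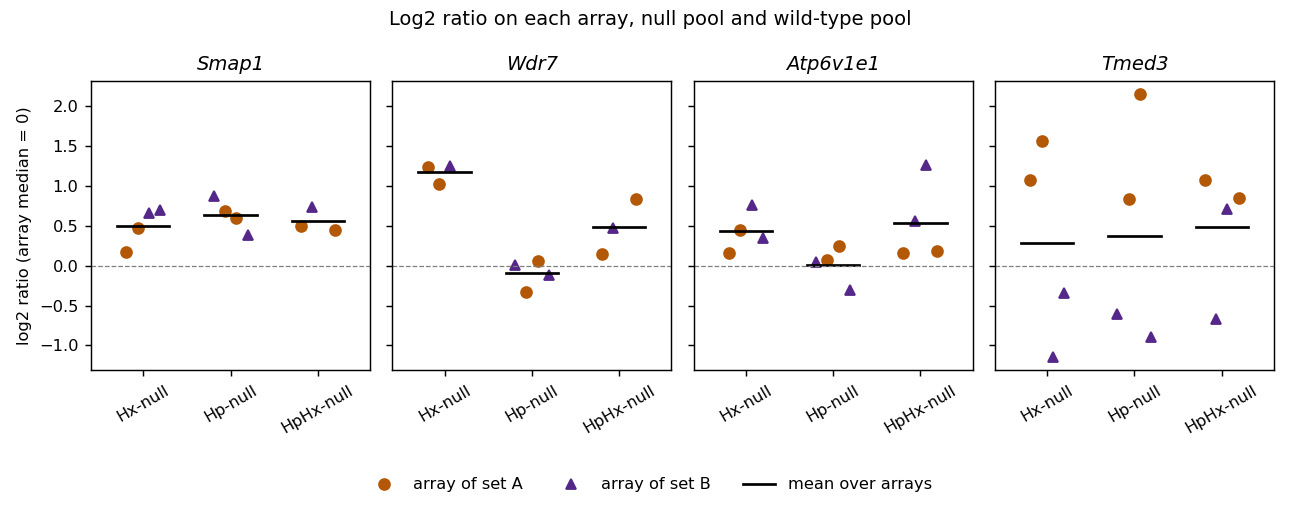
Log2 ratios of Smap1, Wdr7, Atp6v1e1 and Tmed3 on each array (vertical axis) by genotype (horizontal axis), with circles for set A, triangles for set B and a line at the mean over arrays. Smap1 lies above 0 throughout, the 3 Hx-null values of Wdr7 lie above 1, and Tmed3 spreads from -1.14 to 2.15 with set A above set B.

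With signs as deposited, no Rab gene passed in any genotype with either term. Rab11a and Rab11b are close relatives that direct recycling from endosomes to the plasma membrane, Rab11fip2 is an effector that binds them, Rab1b acts between the endoplasmic reticulum and the Golgi, and Rab27a acts in regulated secretion. Rab11a had ratios of -0.54, -0.26, -0.11 and -0.14 in Hx-null, 0.20, -0.17, -0.57 and 0.19 in Hp-null, and -0.59, 0.43 and 0.97 on replicates 1, 2 and 4 of HpHx-null. All 4 Hx-null values were negative as deposited, while the other genotypes held both signs. With the arrays of set A turned in sign, the Hx-null values held both signs. The fitted ratios with the array set were -0.26 (SE 0.18), -0.09 (SE 0.18) and 0.34 (SE 0.21, limma adjusted p = 0.6). Without replicate 4 of HpHx-null the last of these was -0.08, and without replicate 1 of HpHx-null it was 0.70. Rab11a and Rab11b are closely related in sequence, and whether their clones hybridise to both transcripts is uncertain.

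Rab11b, Rab1b and Rab11fip2 had fitted ratios of 0.05, -0.05 and -0.05 in Hx-null and of -0.03, 0.07 and -0.03 in Hp-null with the array set. In HpHx-null they had 0.23 (SE 0.14), -0.17 (SE 0.11) and -0.09 (SE 0.10). Rab27a had -0.10 (SE 0.12) in Hx-null and -0.14 (SE 0.10) in Hp-null. Rab27a nevertheless varied more between arrays than most members, from -1.29 to 1.05, with all 4 of its set A values above 0.5 and all 5 of its set B values below -0.7. With the arrays turned by set, Rab27a passed in Hx-null (-1.0, limma adjusted p = 0.000342) and Hp-null (-0.93, limma adjusted p = 0.000125), and Rab11b (-0.65, limma adjusted p = 0.000331) and Rab11fip2 (0.42, limma adjusted p = 0.00142) passed in Hp-null.

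Copz1 encodes a subunit of the COPI coat, which returns cargo from the Golgi to the endoplasmic reticulum, and Tmed3 a p24 protein that travels in COPI and COPII vesicles. Tmed3 had ratios of 1.08, 1.57, -1.14 and -0.34 in Hx-null, 0.84 and 2.15 on replicates 2 and 3 and -0.60 and -0.89 on replicates 1 and 4 of Hp-null, and 1.07, -0.67, 0.71 and 0.84 in HpHx-null. Every set A value of Tmed3 (0.84 to 2.15) lay above every set B value (-1.14 to 0.71). Its fitted ratios with the array set were 0.29 (SE 0.25), 0.37 (SE 0.25) and 0.49 (SE 0.26, limma adjusted p = 0.483). Copz1 had the opposite order, with set A values from -0.75 to -0.27 and set B values from 0.08 to 0.80, and had fitted ratios of -0.09, -0.05 and -0.04 (SE 0.11 in each). Neither gene passed in any genotype with either term as deposited. With the arrays turned by set, Copz1 passed in Hx-null (0.56, limma adjusted p = 0.000719) and Hp-null (0.40, limma adjusted p = 0.00441), and so did Tmed3 (-1.03, limma adjusted p = 0.0161, and -1.12, limma adjusted p = 0.00861).

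The ratios of the 9 endosomal sorting genes depended on the direction of the array sets. Sorting nexins bind endosomal phosphoinositides: Snx3 works with retromer, Snx5 sorts cargo into recycling tubules, Snx4 takes part in recycling, and Snx9 binds dynamin at the plasma membrane. Vps28 and Vps37a are subunits of ESCRT-I, Vps11 is a core subunit of the HOPS and CORVET tethers, and Vps45 is a fusion factor of the Sec1 family. Fitted ratios of the group with the array set ran from -0.12 to 0.18 in Hx-null, from -0.12 to 0.09 in Hp-null and from -0.31 to 0.01 in HpHx-null, and 0 of 9, 0 of 9 and 0 of 8 passed. With the arrays turned by set, they ran from 0.04 to 0.51, from -0.01 to 0.45 and from -0.02 to 0.73, and 6 of 9, 6 of 9 and 6 of 8 passed, beside 45.3%, 54.9% and 40% of all features. Those that then passed in all 3 genotypes were Snx5 (0.51, 0.34 and 0.62), Snx9 (0.43, 0.39 and 0.49), Vps11 (0.32, 0.35 and 0.45) and Vps37a (0.48, 0.45 and 0.73).

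Vps37a had the ratio farthest from 0 of this group with the array set as a term. Its values were -0.52, -0.08, 0.77 and 0.56 in Hx-null, 0.40, -0.28 and 0.65 on replicates 1, 3 and 4 of Hp-null, and -1.07, 0.38 and -0.74 on replicates 1, 3 and 4 of HpHx-null. The fitted ratios with the array set were 0.18 (SE 0.10), 0.09 (SE 0.12) and -0.31 (SE 0.12, limma adjusted p = 0.221). Each genotype held both signs. Of the HpHx-null arrays with a value, 2 were of set A and 1 of set B, and with the labelled dye in place of the set the ratio was -0.58 (SE 0.30).

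Snx3 was the steadiest member. Its ratios were -0.16, -0.14, -0.03 and -0.12 in Hx-null, 0.02, 0.09, 0.04 and 0.05 in Hp-null, and -0.09, -0.08, -0.18 and -0.11 in HpHx-null. As deposited, the Hp-null values were all positive and overlapped neither of the other genotypes, whose values were all negative. With the arrays of set A turned in sign, every genotype held both signs and the ranges overlapped. The differences were small. The fit with the array set gave an Hp-null ratio 0.17 above that of Hx-null (SE 0.08, limma adjusted p = 0.378), and HpHx-null against Hp-null gave -0.17 (SE 0.08, limma adjusted p = 0.414), so neither passed.

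Exoc3l4, a relative of an exocyst subunit and the 1 gene measured of the tethers grouped by symbol, stayed near 0. Its ratios were 0.01, -0.28, 0.16 and -0.26 in Hx-null, 0.12, 0.11, -0.30 and -0.02 in Hp-null, and -0.09, -0.12, 0.15 and -0.01 in HpHx-null. The fitted ratios with the array set were -0.09, -0.02 and -0.02 (SE 0.09 in each), and their sign in Hp-null and HpHx-null changed with the scaling of the arrays.

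With the array set as a term, 2 of 23 members passed in Hx-null (2.09% of all features), 1 of 23 in Hp-null (2.78%) and 2 of 20 in HpHx-null (5.38%), all of them Smap1 or Wdr7. With the labelled dye, none of 23 passed in Hp-null and none of 20 in HpHx-null, where none of the 2017 and 1711 features tested passed either (both 0%). At an unadjusted limma p under 0.05, 1 and 3 members stood there with the labelled dye (4.35% and 15% of the members, against 2.43% and 5.79% of all features), and 2 and 4 with the array set (8.70% and 20%, against 19.1% and 13.2%). An unmoderated test of the labelled-dye fit also passed none of the members there. Between HpHx-null and Hx-null 0 of 20 members passed with the array set (0.181% of all features), and against the sum of the single nulls 0 of 20 (0.0608%). Between HpHx-null and Hp-null 0 of 20 members and 0 of 1690 features passed with either term. In these last 3 comparisons, in that order, 2, 3 and 3 members had an unadjusted limma p under 0.05 with the array set (10%, 15% and 15%, against 5.56%, 7.78% and 12.4% of all features).

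Taking all members, the median fitted ratio with the array set was 0.03 for Hx-null, -0.02 for Hp-null and -0.02 for HpHx-null, beside -0.02, -0.01 and -0.03 over all features tested. Ratios within 0.2 of zero were found for 18 of 23 members in Hx-null (78.3%, against 82.7% of all features), 20 of 23 in Hp-null (87.0%, against 75.8%) and 13 of 20 in HpHx-null (65%, against 85.3%). With the arrays turned by set, the medians over the members were 0.14, 0.21 and 0.24, beside 0.03 over all features in each genotype, and 47.8%, 34.8% and 35% of the members lay within 0.2 of zero, against 41.5%, 33.7% and 45.2% of all features.

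**Figure D3:**
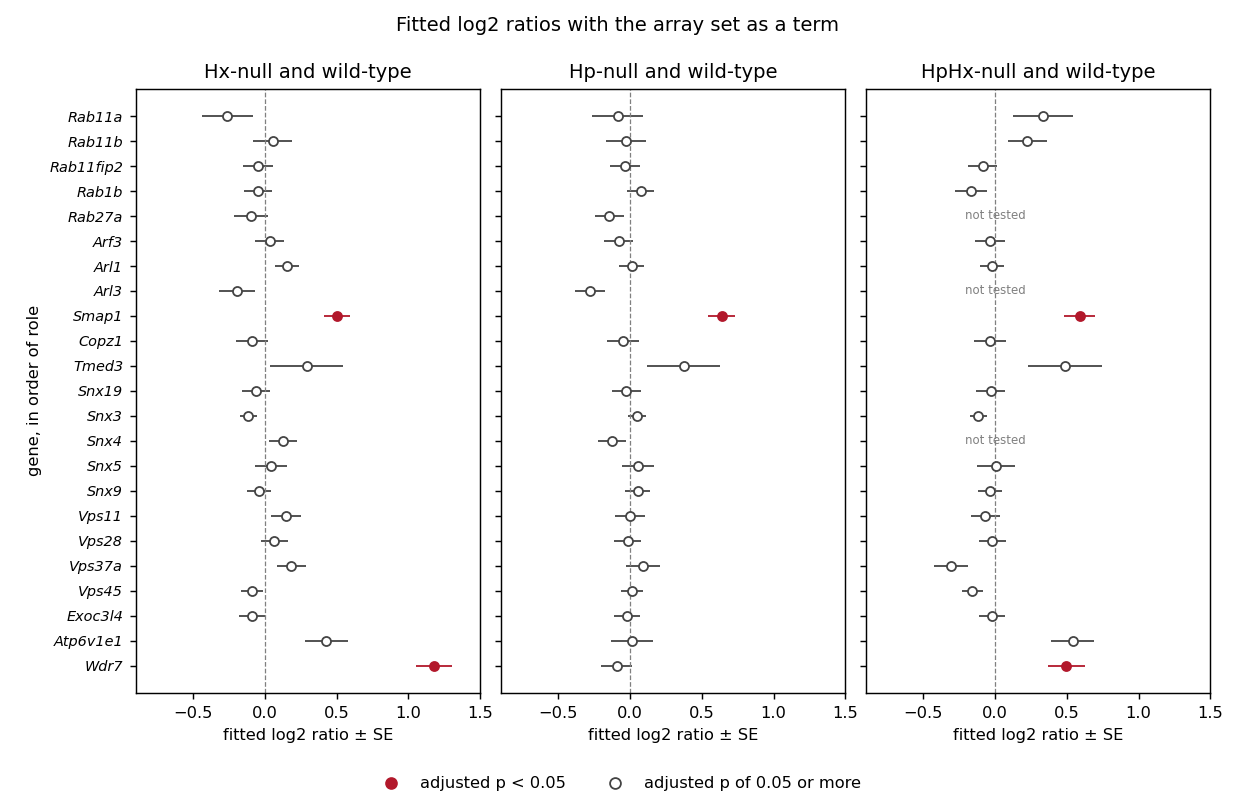
Fitted log2 ratio with its SE (horizontal axis) for each gene (vertical axis, in order of role) in each null against wild-type, from the fit with the array set as a term, with filled red points where the limma adjusted p is under 0.05. Smap1 passes in all 3 panels and Wdr7 in Hx-null and HpHx-null, and the median over genes lies between -0.02 and 0.03 with signs as deposited.

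Many members differed between the array sets. Because the sets were found from all spots of these arrays, the difference between them is a description and carries no test. Of the 23 members, 20 were higher on set B than on set A (87.0%), against 1007 of 1792 features (56.2%). The median difference was 0.39 for the members and 0.09 for all features. All 9 sorting genes were higher on set B, by 0.00 to 1.01 and a median of 0.69, led by Vps37a at 1.01, Snx5 at 0.96, Snx9 at 0.87 and Vps11 at 0.74. The 3 members with the opposite difference were Rab27a at -1.88, Tmed3 at -1.75 and Rab11b at -0.66.

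For Snx5, set A values ran from -0.81 to -0.13 and set B values from 0.33 to 0.71. For Snx9 they ran from -0.66 to -0.17 and from 0.34 to 0.55. Neither gene's sets overlapped, and both sets held arrays of every genotype. On single arrays the median over the members was -0.16, -0.13, 0.17 and 0.17 in Hx-null, 0.12, -0.34, -0.11 and 0.19 in Hp-null, and -0.27, 0.31, 0.14 and -0.24 in HpHx-null, negative on all 6 arrays of set A and positive on all 6 of set B. What the sets stand for is unknown. If the ratios of 1 set run in the opposite direction, the difference between sets would carry the null against wild-type difference. With the arrays turned by set, 9 of 23 members passed in Hx-null, 12 of 23 in Hp-null and 7 of 20 in HpHx-null, where 45.3%, 54.9% and 40% of all features passed, and Smap1 and Wdr7 were among none of them. In that fit 4 of 20 members departed from the summed single nulls (25.9% of all features). Since the sets come from the same values, these counts are descriptions.

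**Figure D4:**
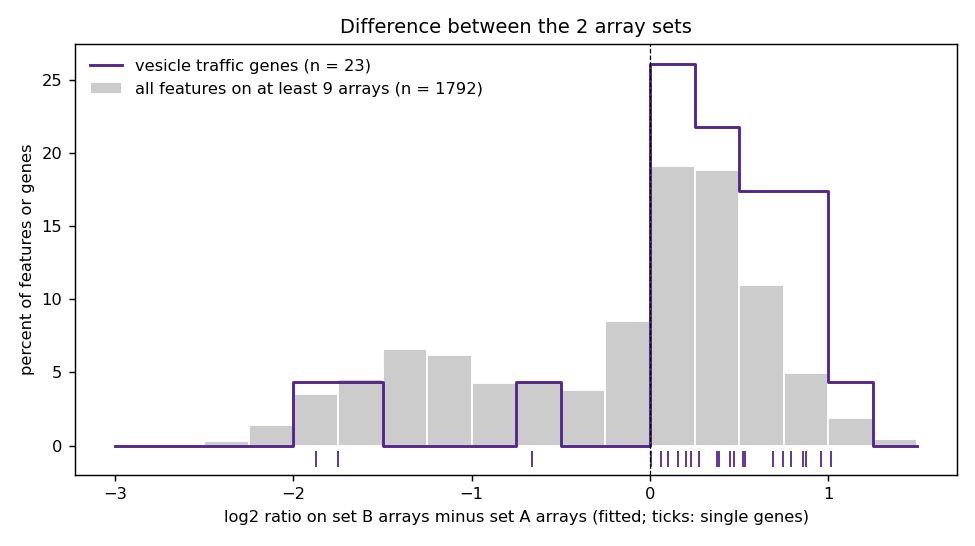
Distribution of the fitted difference between set B and set A arrays (horizontal axis, log2 units) for 1792 features with values on at least 9 arrays (grey bars) and the 23 vesicle traffic genes (purple line and ticks), as percent of each group (vertical axis). The members lie mostly to the right of 0, at a median of 0.39 against 0.09, with Rab27a, Tmed3 and Rab11b to the left.

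Start-site windows of 300 bases, 23 in all, were available from RefSeq (GRCm38.p6) for 18 of the 23 members; Snx9, Vps11, Vps28, Vps37a and Wdr7 had none. The E-box CACGTG, which reads the same on both strands and is contained in the sites bound by TFEB, a regulator of lysosomal genes, was found in 3 of the 23 windows of these members (1 each of Arl3, Rab27a and Snx5), against 7.15% of 32851 windows overall. The antioxidant response element core TGACNNNGC, searched on both strands, was also found in 3 of the 23 windows (Copz1, Rab11fip2 and Snx3), against 12.4% of windows overall. No member had both motifs, so none overlapped. The window of Snx5 is shown because Snx5 had the largest positive set difference of the members with a window. It is chr2:144270523-144270822 on the minus strand, 5′ to 3′, with the E-box in capitals.
Snx5: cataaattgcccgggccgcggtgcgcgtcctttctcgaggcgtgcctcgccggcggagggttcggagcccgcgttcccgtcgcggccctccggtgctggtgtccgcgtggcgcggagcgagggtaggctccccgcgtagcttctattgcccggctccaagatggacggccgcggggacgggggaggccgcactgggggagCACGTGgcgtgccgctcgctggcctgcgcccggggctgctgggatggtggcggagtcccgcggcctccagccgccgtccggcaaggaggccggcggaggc
A match is a description of these letters and not a measured site.

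Other genes of the pathway were listed by name, and 15 of 169 were measured: Chmp6, Dmxl2, Ergic1, Kdelr2, Lamp2, Npc1, Npc2, Psd3, Rabac1, Scarb2, Scfd1, Stam2, Tbc1d15, Tfrc and Ykt6. With the labelled dye none passed in any genotype against wild-type. The array-set fit passed 0 of 15 in Hx-null, 0 of 15 in Hp-null and 1 of 12 in HpHx-null, beside 2.09%, 2.78% and 5.38% of all features. That gene was Npc1, which exports cholesterol from lysosomes, with a ratio of 0.86 (SE 0.16, limma adjusted p = 0.00999) in HpHx-null, 0.45 (SE 0.14, limma adjusted p = 0.107) in Hp-null and 0.13 (SE 0.13, limma adjusted p = 0.723) in Hx-null. Npc2, which hands cholesterol to Npc1 in the lysosome, had 0.09, 0.12 and -0.07 in Hx-null, Hp-null and HpHx-null (SE 0.10 in each), none past the threshold. Tfrc, the transferrin receptor, a cargo of the recycling pathway of Rab11a and Snx3, had 0.01, -0.02 and -0.12 in the same order (SE 0.08, 0.08 and 0.07), none past the threshold. Markers of cell types are given beside these ratios, from the fit with the array set and in the order Hx-null, Hp-null and HpHx-null. The macrophage marker Fcgr1 had 0.43 (SE 0.11, limma adjusted p = 0.0635), -0.08 (limma adjusted p = 0.73) and 0.52 (SE 0.11, limma adjusted p = 0.0151), while Fcer1g had -0.04, 0.01 and -0.08, none past the threshold. Among the hepatocyte markers, Serpina1e had 0.66, 0.53 and 1.37 and passed in HpHx-null (limma adjusted p = 0.00346), and Ttr had 0.21, -0.55 and 0.05 and passed in Hp-null (limma adjusted p = 0.0383). Alb had 0.20, -0.01 and 0.41, Apoa1 had -0.05, -0.17 and 0.19, and the neutrophil marker Ltf had -0.19, -0.02 and -0.02, none past the threshold. None of the markers passed against wild-type with the labelled dye as the term. Serpina1e in HpHx-null then had 1.37 (SE 0.76, limma adjusted p = 0.999) and Fcgr1 0.52 (SE 0.15, limma adjusted p = 0.284). Ttr in Hp-null had -0.55 (SE 0.38, limma adjusted p = 0.999). The part of macrophages or hepatocytes in the member ratios was not tested.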

How the data were processed

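Total RNA of pooled livers was labelled directly with Cy3 or Cy5 by oligo(dT) priming, per the labels. The authors deposited 1 table of log ratios for 31200 spots and 12 arrays, taken here as log2 values; 4167 spots held a value. Their log base, normalization, spot filter and direction were not given in the sources used here. Spot k took the gene symbol of spot 31201 minus k in the platform annotation, an inference from the values. Duplicate spots were averaged, each array was centred on its median, and clones of 1 gene were averaged, which gave 2052 features. R 4.3.3 and limma 3.58.1 (lmFit, robust eBayes) fitted the 12 arrays together, with a coefficient for each genotype and a term for the labelled dye or the array set, Benjamini-Hochberg adjustment over all features and a threshold of 0.05. A feature needed values on 3 of 4 arrays of each genotype compared. The fits were tested on simulated data. Array numbers were not taken as pairs: deviations of same-numbered arrays correlated at -0.864 to 0.851. Values on every array are printed for members that passed in any comparison or had the ratio farthest from 0 in their role group; Atp6v1e1, Snx3 and the members set apart between array sets were added after their values were seen. The members and lists were chosen with earlier results of these data known. Alternatives were the scaling, the filter, the test, the block, the direction, the numbering and arrays left out.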

Additional observations from a re-analysis of the deposited data

Results flagged for a closer look

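Among 56 groups of 4 arrays of single genes, 2 held an array apart from the other 3 by Dixon's criterion, and chance sets apart about 5% of such groups. For Arf3, replicate 2 of Hp-null was at -0.48, with the others at 0.01 to 0.11 (gap over range 0.833). For Rab11b, replicate 2 of Hx-null was at 0.46, with the others at -0.09 to -0.07 (gap over range 0.962). For Wdr7 the ratios of Hp-null and Hx-null differed by -1.30 on the log2 scale with the labelled dye, a direct test of the difference that passed (limma adjusted p = 0.036).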

How the results depend on the processing

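Turned by set, the median member ratio became 0.14, 0.21 and 0.24 in Hx-null, Hp-null and HpHx-null, one sign on every array. Under the other alternatives it moved by less than 1 SD of the array medians, a spread that holds the difference between sets. Counts of members past the threshold with the labelled dye changed as follows. Against wild-type, Hx-null had 2 members past the threshold with the array set (also with values as deposited or quantile scaling), 3 with the arrays of that genotype alone (Atp6v1e1, Smap1 and Wdr7), 9 with arrays turned by set, and 0 with the replicate block, arrays turned by the labelled dye, features on all 12 arrays or direct numbering. Hp-null had 1 with the array set under each scaling and 12 turned by set. HpHx-null had 2 with the array set, 3 with either other scaling (Atp6v1e1 added) and 7 turned by set. The share of all features is not given for the other scalings or for the arrays of 1 genotype alone. Counts under those settings describe the processing and are not read as a result about the members. Against the summed single nulls 4 of 20 passed turned by set (25.9% of all features). Between Hp-null and Hx-null 0 members passed with values as deposited, quantile scaling, the replicate block, either turning, the unmoderated test, features on all 12 arrays or direct numbering. With arrays left out in turn, over both terms, the count was 0 to 3 in Hx-null, 0 to 1 in Hp-null, 0 to 3 in HpHx-null and 0 to 1 between Hp-null and Hx-null. With direct numbering the named members had no value. Signs turned as follows. Exoc3l4 became 0.012 in Hp-null as deposited and 0.013 in HpHx-null with quantile scaling, with either term. Turned by the labelled dye, Smap1 in Hx-null became -0.18, Vps37a in Hx-null -0.48, Exoc3l4 in Hp-null 0.14, Rab11a 0.10 in Hp-null and -0.37 in HpHx-null, Tmed3 -0.25 and -0.29 there, and Wdr7 in HpHx-null -0.072. Turned by set, Hx-null ratios became 0.044 for Exoc3l4, 0.14 for Rab11a, -1.03 for Tmed3 and -0.34 for Wdr7. In Hp-null they became 0.074 for Exoc3l4, 0.28 for Rab11a, -0.0062 for Smap1, -1.12 for Tmed3 and 0.038 for Wdr7, and in HpHx-null 0.031 for Exoc3l4, -0.065 for Smap1, -0.47 for Tmed3, 0.73 for Vps37a and -0.17 for Wdr7. Between Hp-null and Hx-null Wdr7 became 0.38 and Smap1 -0.19. With an array left out and the labelled dye, ratios crossed 0 for Tmed3 in Hx-null (-0.13 to 0.77), in Hp-null for Exoc3l4 (-0.074 to 0.082), Rab11a (-0.25 to 0.15), Tmed3 (-0.35 to 0.80) and Vps37a (-0.29 to 0.53), and in HpHx-null for Exoc3l4 (-0.082 to 0.021) and Rab11a (-0.058 to 0.70). The array set gave -0.087 to 0.064 for Exoc3l4, -0.13 to 0.024 for Rab11a and -0.020 to 0.18 for Vps37a in Hp-null, and -0.063 to 0.039 for Exoc3l4 and -0.075 to 0.70 for Rab11a in HpHx-null. The cause of these changes was not tested. One pool per genotype and 4 arrays limit every p-value, and signal over background is unknown because intensities were not analysed here.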
